A study of Homo sapiens with 16 samples.

Results

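Broad H3K4me3 domains are promoter regions in which the histone mark runs on for several kilobases. They were taken here as the peaks of at least 4000 bp, on chromosomes 1 to 22 and X, in the anti-H3K4me3 list of WM164 cells overexpressing GFP. This gave 1679 domains of 13579 H3K4me3 peaks (12.4%), which held 28.1% of all base pairs under H3K4me3 peaks (9.10 Mb). The domains were selected on their measured width in GFP cells, so that width is a description and carries no test. They ran from 4000 to 19305 bp with a median of 4895 bp, beside a median of 1948 bp for the 11900 narrower peaks. Of the domains, 786 were at least 5000 bp and the other 893 were shorter than that. The limit cuts through a continuous range. The last domains inside it measured 4000 bp, at AIMP1 and TBCK, at MBOAT1 and at PHB2 and EMG1, and the first 3 peaks outside measured 3999, 3998 and 3998 bp.

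WM164 is a human melanoma cell line, and all libraries come from it. One derivative overexpressed GFP, a fluorescent protein that serves as the control, and the other overexpressed MAFG. Protein-bound DNA was profiled by CUT&RUN, in which an antibody directs a nuclease to its target in isolated nuclei. Each line had 3 anti-MITF libraries, 3 anti-MAFG libraries, 1 anti-H3K4me3 library and 1 anti-rabbit IgG library, and the 2 IgG samples were not analysed here. The promoter that drove each transgene, and whether a line was a clone or a pool, are not given in the sources used here. The labels do not say that replicates were separate cultures, so p-values measure the spread between these libraries, which may be technical. Read totals are not in the peak lists, so depth is known only from what the peak values allow, as given beside the results.

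H3K4me3 is laid down at active and poised promoters, usually over a narrow window around the start site. Its broadest stretches are known to lie on genes that define a cell's identity and on highly transcribed genes. MITF is the master transcription factor of the pigment cell lineage and binds E-boxes such as CATGTG, often called the M-box, and CACGTG. MAFG is a small MAF protein without a transactivation domain of its own. It binds antioxidant and MAF response elements as a dimer, with partners such as NFE2L2 (NRF2) and BACH1, and these elements contain TGAC followed at a fixed distance by GC. The AP-1 motif TGAGTCA is related to them.

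The promoters of 6 pigment cell genes inside broad domains are printed because their windows bear on anti-MITF binding. Each had an anti-MITF peak over the window in 3 of 3 GFP-cell libraries. They were chosen from 8 such genes among the pigment cell genes whose windows were used here, and the other two, SOX4 and EDNRB, are not printed. The windows run 5′ to 3′ from 250 bases before to 50 bases after the start, from RefSeq on GRCh38.p14. Capitals mark every match, on either strand, to any of 4 motifs. These were the M-box CATGTG, the palindromic E-box CACGTG, the AP-1 motif TGAGTCA and the longer element TGACNNNGC, where N is any base. The MITF window is at chr3:69936342-69936641 on the plus strand, TYR at chr11:89177625-89177924 plus, SLC24A5 at chr15:48120740-48121039 plus, RAB27A at chr15:55270350-55270649 minus, MC1R at chr16:89918612-89918911 plus and GPNMB at chr7:23246525-23246824 plus.
MITF: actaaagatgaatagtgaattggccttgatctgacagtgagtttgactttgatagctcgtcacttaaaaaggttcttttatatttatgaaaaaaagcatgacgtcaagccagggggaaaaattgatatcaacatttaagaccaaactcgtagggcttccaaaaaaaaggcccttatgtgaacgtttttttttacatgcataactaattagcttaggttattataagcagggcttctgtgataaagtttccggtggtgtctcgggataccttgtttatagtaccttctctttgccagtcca
TYR: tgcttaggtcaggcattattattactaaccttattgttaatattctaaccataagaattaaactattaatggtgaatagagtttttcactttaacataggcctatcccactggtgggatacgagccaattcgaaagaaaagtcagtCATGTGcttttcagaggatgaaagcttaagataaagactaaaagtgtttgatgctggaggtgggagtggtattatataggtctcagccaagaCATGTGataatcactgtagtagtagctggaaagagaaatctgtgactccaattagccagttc
SLC24A5: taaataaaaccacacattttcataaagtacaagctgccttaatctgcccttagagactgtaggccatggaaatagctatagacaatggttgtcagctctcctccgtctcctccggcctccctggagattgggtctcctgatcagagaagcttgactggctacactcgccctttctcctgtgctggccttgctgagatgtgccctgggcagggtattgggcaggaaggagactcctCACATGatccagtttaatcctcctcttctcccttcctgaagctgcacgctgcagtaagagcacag
RAB27A: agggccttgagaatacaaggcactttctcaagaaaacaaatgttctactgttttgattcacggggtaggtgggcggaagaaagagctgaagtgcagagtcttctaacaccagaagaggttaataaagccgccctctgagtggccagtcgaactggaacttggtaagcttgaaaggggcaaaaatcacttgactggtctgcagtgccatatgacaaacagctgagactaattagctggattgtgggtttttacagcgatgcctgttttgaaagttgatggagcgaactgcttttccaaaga
MC1R: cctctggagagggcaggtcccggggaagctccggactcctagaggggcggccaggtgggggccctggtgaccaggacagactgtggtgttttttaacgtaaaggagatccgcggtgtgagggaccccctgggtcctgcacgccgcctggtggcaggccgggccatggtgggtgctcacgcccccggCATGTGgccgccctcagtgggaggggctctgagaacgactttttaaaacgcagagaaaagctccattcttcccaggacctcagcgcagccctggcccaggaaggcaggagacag
GPNMB: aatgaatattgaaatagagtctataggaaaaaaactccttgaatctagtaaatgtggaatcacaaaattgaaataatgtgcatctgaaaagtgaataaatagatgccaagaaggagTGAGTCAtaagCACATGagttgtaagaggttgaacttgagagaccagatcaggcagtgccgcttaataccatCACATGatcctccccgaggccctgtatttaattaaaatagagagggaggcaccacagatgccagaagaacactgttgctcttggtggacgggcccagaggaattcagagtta

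The TYR window, of the gene for tyrosinase, held CATGTG 104 and 12 bases before the start. GPNMB, a melanosomal glycoprotein, held it 123 and 62 bases before the start, with TGAGTCA 134 bases before. In SLC24A5, a melanosomal ion exchanger, and in MC1R, the melanocortin receptor, CATGTG began 15 and 64 bases before the start. The windows of MITF and of RAB27A, which tethers melanosomes to the cell's transport machinery, held none of the 4 motifs. Counting every window of the 8 genes that met this condition, 5 of 10 held CATGTG and 5 held none of the 4 motifs. These matches describe the windows and do not show where a factor bound. Over all 2268 promoter windows in broad domains, 6.66% held CATGTG, against 5.78% of windows in narrower peaks, 12.1% of windows outside H3K4me3 peaks and 8.93% of all 22131. CACGTG was in 9.48% of the domain windows, 10.3% of windows in narrower peaks and 8.34% of all windows. TGAGTCA was in 2.95%, 2.50% and 4.01% of these, and TGACNNNGC in 13.4%, 15.4% and 13.8%. CACGTG and TGACNNNGC were thus less frequent in domain windows than in windows of narrower peaks, and CATGTG and TGAGTCA slightly more frequent. The domain windows had a median GC content of 66.0% and an observed over expected CpG ratio of 0.869, near the 66.7% and 0.853 of windows in narrower peaks. Windows outside H3K4me3 peaks had 56.3% and 0.374.

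Most broad domains lay on gene starts. For these counts and the gene lists below, either end of the gene stood in for the start where the reference gave none. This applied to 4159 protein-coding genes, among them SOX10, SNAI2, PMEL, CDK2, RAB38, DUSP4, CCND1, MYC and SLC7A11. A start in this sense of a protein-coding gene lay in 1546 domains (92.1%), against 66.0% of narrower peaks, and 385 domains held at least 2. A further 49 held only the start of a long non-coding RNA, and 84 (5.00%) held neither, against 30.3% of narrower peaks. Together the domains covered 1942 of 19970 protein-coding genes, which is 9.72%. Of the genes with a start in any H3K4me3 peak of GFP cells, 18.6% had one in a broad domain. These 2 shares are the background for the lists that follow, which were drawn up with earlier results of these data known and are described by counts alone. Of 180 listed genes, 69 (38.3%) had a start in a domain and 113 had one in any peak.

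Transcription factors of the pigment cell lineage were mostly in broad domains: 9 of 14 genes, and 9 of the 12 with an H3K4me3 peak. They were MITF, its activators SOX10 and LEF1, the neural crest factors TFAP2A, SNAI2, SOX5 and SOX4, and ZEB2 and the retinoid receptor gene RXRG. The widest were LEF1 at 14148 bp, TFAP2A at 12593 bp and SOX10 at 10390 bp, and the MITF domain measured 4559 bp. PAX3, FOXD3 and MSX2 had narrower peaks, and IRF4 and SOX9 had none at a start. Of the melanosome and pigment cell surface genes, 8 of 16 were in domains, which is 8 of the 9 with a peak. PMEL, the structural protein of melanosome fibrils, lay in a domain of 12731 bp that also held the starts of CDK2 and RAB5B. The domain of MC1R, shared with TUBB3, measured 8946 bp, and TYR, with 8828 bp, and EDNRB, the endothelin receptor, with 7377 bp, followed. RAB38 had 6722 bp, SLC24A5 4516 bp, RAB27A 4308 bp and GPNMB 4077 bp.

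Of the other genes in this list, GPR143 had a narrower peak of 1468 bp. The remaining 7, TYRP1, DCT, MLANA, OCA2, SLC45A2, TRPM1 and KIT, had no H3K4me3 peak over a start. For 3 of them this rests on the start rule. A domain of 5351 bp ended 33 bp short of the DCT start, a narrower peak of 2407 bp lay 40 bp from the MLANA start, and one of 1535 bp lay 237 bp from the SLC45A2 start. TYRP1 and KIT, the stem cell factor receptor, were 81521 and 423622 bp from the nearest peak. Of 11 markers of pigment cells, 7 had an H3K4me3 peak at a start and 6 were in broad domains. Of 14 markers of keratinocytes, fibroblasts, blood, liver and neurons, 1 had a peak (PDGFRA) and 0 were in domains. These 14 were chosen from longer lists, which held more genes with a peak. In the longer lists 1 of 10 keratinocyte, 3 of 10 fibroblast, 1 of 10 blood, 0 of 10 liver and 3 of 10 neuronal genes had one.

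Genes of growth factor signalling were in broad domains too. Of 12 genes of MAPK feedback, which restrain or report ERK signalling, 10 were in domains, among them DUSP4 (13470 bp), SPRY4 (12745 bp), DUSP6 (10372 bp), PHLDA1 (10080 bp) and SPRY2 (9458 bp). SPRED1, SPRY1, CCND1, ETV4 and ETV5 were also there. Of 14 immediate early genes 11 were in domains, including FOS, FOSL1, FOSL2, JUN, JUNB, JUND and EGR1, with widths from 4484 to 8318 bp. Of 14 ribosomal protein genes, expressed in every cell, 10 were in domains of 4353 to 7322 bp, so broad domains were not limited to lineage genes. Among 13 survival and cell cycle genes 6 were in domains: BCL2A1, a pigment cell survival gene, MCL1, CDK2, CDK6, MYC and CDKN2A, which had 2 domains of 4787 and 11475 bp. Of 15 MAF and NRF2 target or partner genes 5 were in domains: NQO1, SLC7A11, SQSTM1, FTH1 and NFE2L2. MAFG itself and MAFF, MAFK and BACH1 had narrower peaks. Of 12 genes of the dedifferentiated melanoma state 3 were in domains (ZEB1, TEAD1 and TNFRSF12A). Foreign lineages gave 0 of 10 keratinocyte, 0 of 10 fibroblast and 0 of 10 liver genes, 1 of 10 blood genes (RUNX1, 9930 bp) and 1 of 10 neuronal genes (POU3F2, 7227 bp, a factor also known in melanoma).

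The widest domain, 19305 bp, lay at chr11:65416132-65435436 on NEAT1, the long non-coding RNA that scaffolds paraspeckles. Its neighbour MALAT1, another abundant nuclear RNA, had 12586 bp. The next widest after NEAT1, 19303 bp on chromosome 22, held LOC124905135 and the long non-coding RNA LINC02939. It was followed by RHOF (14453 bp), LEF1 and a cluster of RAB34, RPL23A, TLCD1 and NEK8 (13580 bp). IRS2, an insulin receptor substrate, had 13501 bp. The 25 widest also held NR2F2 (12139 bp), KMT2E (12118 bp), HEY2 (11360 bp) and CDKN1B, a cell cycle inhibitor whose domain of 12256 bp also held GPR19 and APOLD1. Deposited fold enrichment at the summit had a median of 59.9 in domains and 24.5 in narrower peaks.

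In MAFG cells nearly all broad domains were still marked, over a shorter stretch. Of the 1679 domains, 1673 (99.6%) overlapped an H3K4me3 peak of MAFG cells, against 77.2% of narrower peaks and 98.3% of those of 2000 to 4000 bp. For these 1673 the median width was 4891 bp in GFP cells and 3846 bp for the longest overlapping peak in MAFG cells. The median ratio of MAFG-cell to GFP-cell width was 0.790, and the middle 80% of domains lay between 0.483 and 0.930. The ratio was close to that of narrower peaks (0.770) and of peaks of 2000 to 4000 bp (0.786). At least 1.5-fold narrower in MAFG cells were 457 domains (27.3%), beside 30.1% of all GFP-cell peaks with a MAFG-cell peak, and at least 1.5-fold wider were 0 domains, beside 0.792%. Only 24 domains were wider at all, 727 (43.3%) still reached 4000 bp and 297 (17.7%) were split into 2 to 5 peaks. There was 1 H3K4me3 library per line, so no test can be made.

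Because the domains were selected on GFP-cell width, the lists were also exchanged. MAFG cells had 743 peaks of at least 4000 bp, of which 728 (98.0%) overlapped a GFP-cell peak of that width. Of the 743, 704 (94.8%) were wider in GFP cells, with a median GFP-cell over MAFG-cell ratio of 1.16. Across the 1673 domains the rank correlation of width between the lines was 0.624 (Spearman), a description over domains that share their libraries.

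The peak values also give how the libraries entered peak calling. Each summit's fold enrichment and p-value could be solved for a whole number of fragments times 1 scale factor per library. The GFP-cell H3K4me3 library came out unscaled and the MAFG-cell library was scaled by 0.350. In the 1060 domains solved in both lines the median summit held 108 fragments in GFP cells and 118 in MAFG cells, and 41.3 in MAFG cells after scaling. The remaining domains were left out. Either a summit in 1 or both lines had −log10 p of 250 or more, or no MAFG-cell peak overlapped the domain. Summit fragments were thus about equal before scaling (median ratio 1.09) and lower after it (0.382), and the part of this scaling in the widths was not tested.

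**Figure D1:**
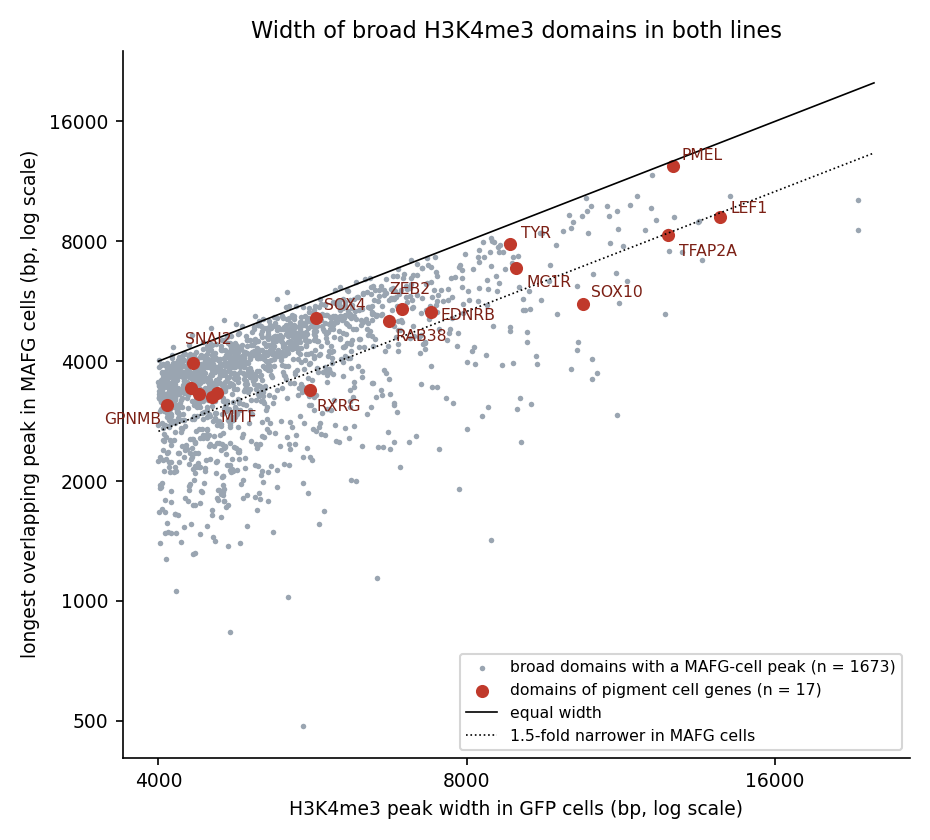
Width of each broad H3K4me3 domain in GFP cells (horizontal, bp, log scale) against the longest overlapping peak in MAFG cells (vertical, bp, log scale), 1 library per line. Grey points are the 1673 domains with a MAFG-cell peak and red points the 17 domains of listed pigment cell genes; nearly all points lie below the line of equal width.

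The domains of pigment cell genes were shorter in MAFG cells in 17 of 17 cases, as were 98.6% of all domains with a MAFG-cell peak and 94.7% of all such H3K4me3 peaks, so this count does not set them apart. The median ratio of the lineage factors was 0.729 over 9 domains, that of the melanosome genes 0.763 over 8 and that of all 1679 domains, with those without a MAFG-cell peak at 0, 0.789. By longest peak, SOX10 went from 10390 bp to 5580 bp, LEF1 from 14148 to 9217 bp and TFAP2A from 12593 to 8299 bp. Each of these domains was split into 2 peaks, which together still covered 73.3%, 85.1% and 78.3% of the base pairs. MITF, with 1 peak, went from 4559 to 3325 bp. SNAI2 and SOX4 kept more, in 1 peak each, at 3960 of 4327 bp and 5138 of 5701 bp. PMEL had 12362 of 12731 bp and was the widest H3K4me3 peak in MAFG cells, and TYR kept 7887 of 8828 bp. The 10 MAPK feedback domains had a median ratio of 0.888, from 0.664 (DUSP4) to 0.988 (ETV5). The 11 immediate early domains had 0.755, with JUNB lowest at 0.372 (6550 to 2439 bp). The JUNB domain was split into 2 peaks that together covered 60.8% of its base pairs, while FOS, with 1 peak, kept 54.4%. The 6 domains of MAF and NRF2 genes had 0.855, and SLC7A11, the cystine transporter, was the only one of them that was not narrower (4121 to 4155 bp). The 10 ribosomal protein domains had 0.815.

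**Figure D2:**
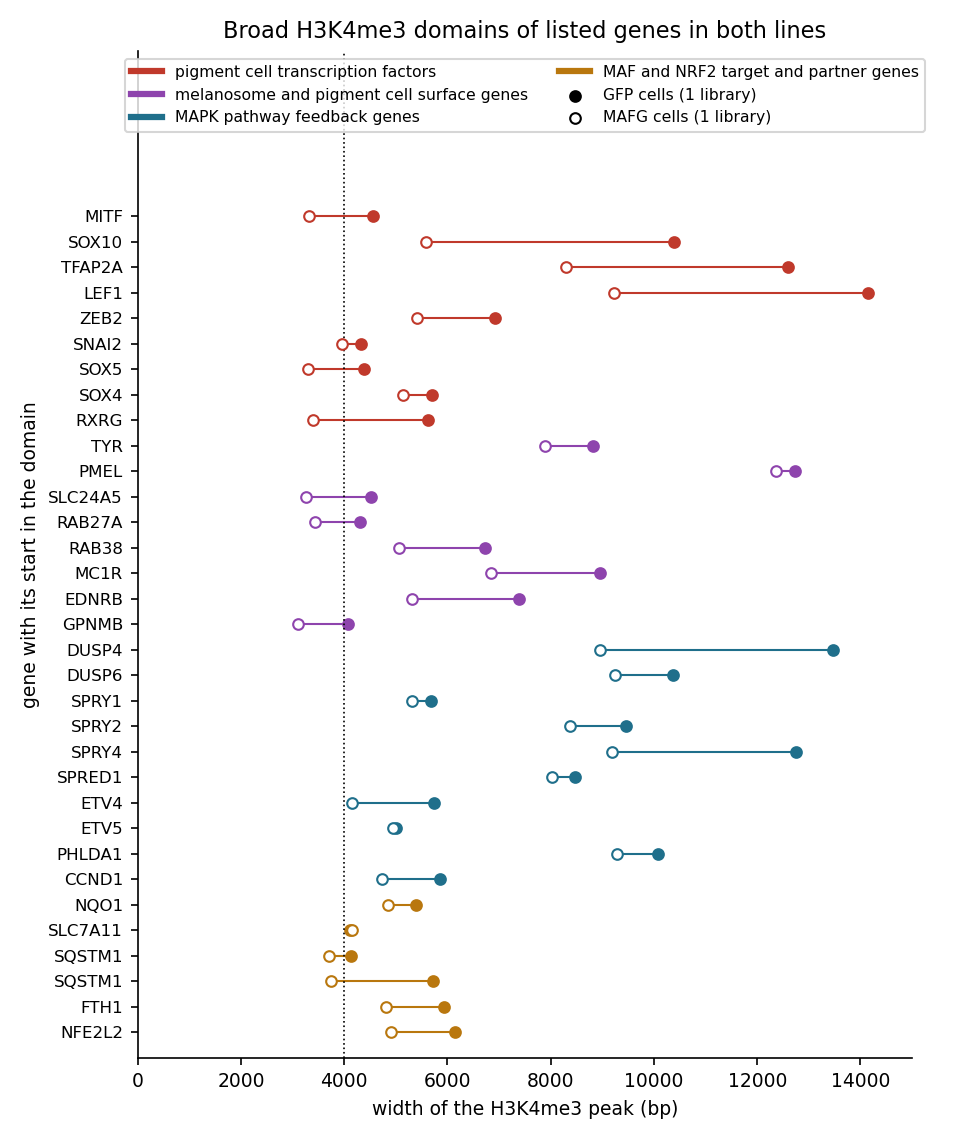
Width in bp of the H3K4me3 peak over listed genes in GFP cells (filled) and of the longest overlapping peak in MAFG cells (open), 1 library per line, with 4000 bp dotted. SLC7A11 is the only row in which the open point lies to the right; SQSTM1 appears on 2 rows because it has 2 domains.

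A few domains departed far from the median. No MAFG-cell peak overlapped those of HS3ST3A1 (6477 bp), TRAF1 (5113 bp) and RNF43 (4896 bp) or those nearest to PROX1, PCDH1 and SEMA3A. The lowest ratios among the others were 0.0878 near USP6NL, 0.169 at LOC124904432, 0.174 at CIC, a transcriptional repressor downstream of ERK, 0.178 at the histone genes H3C2 and H2AC4, and 0.191 in the domain beside the DCT start, where 1023 of 5351 bp were left as the longest peak. The highest were 1.12 at USP53, 1.10 at CERT1 and POLK, 1.10 at EHBP1, 1.08 at GPC6 and 1.08 at STK17B.

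Anti-MITF peaks were found in most broad domains of GFP cells. The 3 libraries placed a peak in 80.9%, 81.1% and 78.5% of the domains (80.2% ± 1.46, SD, n = 3), against 47.4% ± 0.270 of narrower peaks. In at least 2 of 3 libraries 1372 domains (81.7%) had one, beside 51.3% of all GFP-cell H3K4me3 peaks, and 373 domains held 2 or more such regions, up to 6. Longer peaks have more room for an overlap, and the share was higher in each wider class, from 39.9% at 1000 to 2000 bp to 91.3% at 7000 bp and above. Per base pair the classes were closer. Anti-MITF peaks covered 23.2% ± 0.299 of the base pairs of domains and 20.3% ± 0.116 of those of narrower peaks in GFP cells.

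In MAFG cells the same antibody gave peaks in 13.9%, 12.4% and 13.8% of the domains (13.4% ± 0.809, n = 3). All 3 libraries lay below all 3 of GFP cells, with a difference of -66.8 percentage points. A two-sided exact permutation test gave p = 0.1, the smallest that 3 against 3 libraries allow, and 0.133 after Benjamini-Hochberg adjustment over 8 tests. At least 2 of 3 MAFG-cell libraries had a peak in 197 domains (11.7%), beside 5.85% of all H3K4me3 peaks. Both sets are H3K4me3 peaks of GFP cells, and 99.6% of domains but 77.2% of narrower peaks were still marked in MAFG cells. This limit holds for every MAFG-cell comparison of domains with other H3K4me3 peaks below, for either antibody. Present in 3 of 3 GFP-cell and 0 of 3 MAFG-cell libraries were 798 domains (47.5%), beside 26.5% of all H3K4me3 peaks, and 0 domains had the opposite pattern. The whole lists were shorter too: 20016 ± 163 anti-MITF peaks per library of GFP cells and 2367 ± 218 per library of MAFG cells. Of all anti-MITF summits, 10.2% ± 0.274 and 10.4% ± 0.592 lay in domains, with overlapping ranges, so the share of the list that fell in domains differed by less than the spread between libraries. With the 1836 peaks of highest fold enrichment in each library, the difference shrank to -1.79 percentage points. MAFG-cell pileups were scaled by 0.452 to 0.562 in calling and those of the GFP-cell anti-MITF libraries were not, and the part of that in the result was not tested. In such bulk libraries fewer cells with a bound site and less binding per cell cannot be told apart.

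Anti-MAFG peaks were found in fewer domains and varied more. The GFP-cell libraries gave 65.1%, 58.8% and 40.9% of domains (54.9% ± 12.5, n = 3), against 33.0% ± 8.19 of narrower peaks. The order of these 3 libraries followed their list lengths of 26221, 23409 and 14879 peaks. At least 2 of 3 libraries had a peak in 947 domains (56.4%), beside 35.5% of all H3K4me3 peaks. In MAFG cells, which overexpress the antibody's target, the shares were 4.05%, 3.45% and 4.65% (4.05% ± 0.596). All 3 again lay below all 3 of GFP cells, with a difference of -50.9 percentage points (exact permutation p = 0.1, 0.133 after adjustment). With the 1836 strongest peaks per library the difference was -2.08. List length was 21503 ± 5906 in GFP cells and 2168 ± 563 in MAFG cells, whose pileups had been scaled by 0.484 to 0.637, against 0.969 or no scaling in GFP cells. Of all anti-MAFG summits, 6.10% ± 0.0552 lay in domains in GFP cells and 3.44% ± 0.561 in MAFG cells. At least 2 of 3 MAFG-cell libraries had a peak in 61 domains (3.63%), beside 2.07% of all H3K4me3 peaks. Present in 3 of 3 GFP-cell and 0 of 3 MAFG-cell libraries were 524 domains (31.2%), beside 17.8%, and 0 had the opposite pattern.

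**Figure D3:**
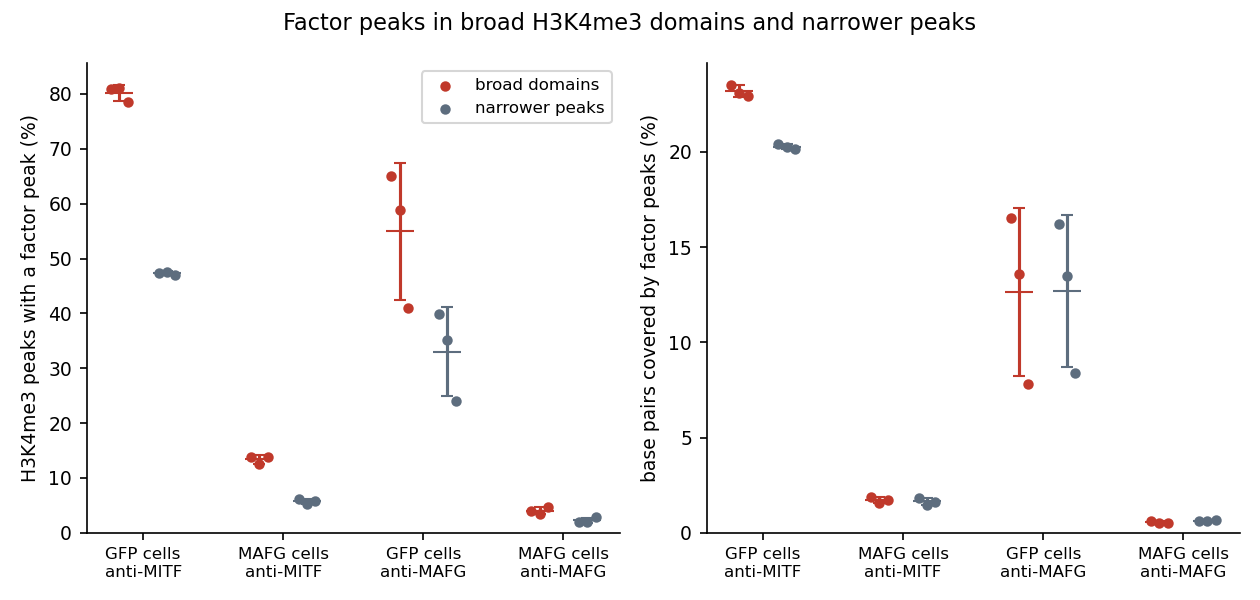
Left, share of broad domains (red) and narrower H3K4me3 peaks (grey) with at least 1 factor peak in each library (%); right, share of their base pairs covered by factor peaks (%). Points are libraries, and bars the mean ± SD of 3: domains and narrower peaks are far apart on the left and close together on the right, and MAFG cells are below GFP cells in both panels.

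Within a line, anti-MITF peaks were in more domains than anti-MAFG peaks, by 25.3 percentage points in GFP cells and 9.33 in MAFG cells. Libraries of the 2 antibodies did not overlap in either line (exact permutation p = 0.1 in each, 0.133 after adjustment). The sizes depended on the lists: with the 1836 strongest peaks per library the differences were 6.04 and 6.33 percentage points, and with −log10 q of at least 5 the one in MAFG cells was 4.67. Coverage per base pair was used to set domains against narrower peaks, since it varied less with length than the share. It was not free of length: in GFP cells anti-MITF coverage was 26.2% in H3K4me3 peaks below 1000 bp, 18.8% at 1000 to 2000 bp and 24.1% at 7000 bp and above. For anti-MITF it was higher in domains than in narrower peaks in 6 of 6 libraries, by 2.91 percentage points in GFP cells and 0.0965 in MAFG cells, which is 1.503 over both lines. The exact sign-flip test gave p = 0.03125, the smallest it can give, and 0.133 after adjustment, so the difference did not pass. Its direction depended on the measure. Counted by summits, domains held 22.4 ± 0.509 anti-MITF summits per 100 kb in GFP cells and narrower peaks 24.5 ± 0.160, while the anti-MITF peaks themselves were wider in domains, at a median of 804 ± 7 bp against 742 ± 8.08 bp.

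For anti-MAFG, coverage of domains minus that of narrower peaks was -0.0717 percentage points, positive in 2 of 6 libraries (exact sign-flip p = 0.625). Without the shortest GFP-cell list, that of replicate 3, it was 0.0241, and against narrower peaks of 2000 to 4000 bp alone 0.405 (exact sign-flip p = 0.03125). With the same exact p it was -0.316 at a 3000 bp limit, -0.147 with −log10 q of at least 5 and -0.0959 with equal peak numbers. Summits (-1.40 per 100 kb) and a 1000 bp window at the H3K4me3 summit (-1.43) also gave that p. The sign depended on the comparison, so no direction can be given. Whether domains lost more coverage than narrower peaks between the lines was tested as the difference in log2 coverage ratio. This was -0.110 for anti-MITF (exact permutation p = 0.1, 0.133 after adjustment) and -0.180 for anti-MAFG (exact permutation p = 0.2, 0.229 after adjustment). The anti-MITF value changed sign to 0.0752 when summits were counted, and the anti-MAFG value to 0.0170 at a limit of 5000 bp. In a 1000 bp window at the H3K4me3 summit both were further below 0, at -0.368 and -1.16 (exact permutation p = 0.1 in each, the smallest possible). The sign therefore depended on the measure for both antibodies.

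Some domains held peaks of both factors. Taking peaks seen in at least 2 of 3 libraries of GFP cells, 872 domains (51.9%) had both, beside 28.1% of all H3K4me3 peaks, while 500 domains had anti-MITF alone, 75 anti-MAFG alone and 232 neither. In MAFG cells 15 domains (0.893%) had both, beside 0.523% of all H3K4me3 peaks, and 182, 46 and 1436 the others. Longer peaks have more room for each factor, so these shares do not show that the factors meet more often than their separate shares give. Of the 1753 anti-MITF regions in domains of GFP cells, 888 (50.7%) overlapped an anti-MAFG region, beside 51.1% of those in narrower peaks and 65.2% of those outside H3K4me3. In MAFG cells it was 13 of 207 (6.28%), beside 9.12% and 16.9%. Only 4 domains had peaks in all 12 libraries: NEAT1, MATR3, a nuclear matrix protein, NOCT, a gene under circadian control, and SND1. In the NEAT1 domain anti-MITF peaks covered 39.6%, 46.7% and 38.3% of the base pairs in GFP cells, and in MAFG cells 14.1%, 12.7% and 10.1%. Anti-MAFG peaks there covered 9.93%, 10.8% and 4.73%, and 9.71%, 6.32% and 6.998%, so for anti-MAFG the lines overlapped.

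Anti-MITF peaks lay in nearly all domains of pigment cell genes in GFP cells, as in most domains. At least 2 of 3 libraries had one in 8 of 9 domains of lineage factors (all but ZEB2) and in 8 of 8 of melanosome genes, beside 81.7% of all domains. Both counts are near that share. In MAFG cells these counts were 2 of 9 and 4 of 8, beside 11.7%. The domains of the 2 lists were wide, with medians of 5701 and 7049.5 bp against 4895 bp for all domains. The share with a peak rose with width. Of H3K4me3 peaks of 5000 to 7000 bp, a mean of 84.5% per GFP-cell library and 14.4% per MAFG-cell library had one. At 7000 bp and above the means were 91.3% and 19.7%. The MITF domain was covered to 100%, 66.1% and 78.6% by anti-MITF peaks of GFP cells, and to 23.6%, 0% and 12.6% by those of MAFG cells. RAB27A had 65.8%, 56.2% and 56.4%, and 19.6%, 16.04% and 17.2%. MC1R had 28.8%, 23.3% and 26.7%, and 9.40%, 11.3% and 10.8%. The last 2 were called in every MAFG-cell library, at lower coverage than in any GFP-cell library. GPNMB and EDNRB had a peak in 2 of 3 MAFG-cell libraries, SLC24A5 and RAB38 in 1, and TYR and PMEL in 0, although PMEL and TYR kept wide H3K4me3 peaks. In GFP cells TYR had 42.8%, 32.2% and 27.97%, and PMEL 15.95%, 16.3% and 36.2%. In SOX10 the values were 26.5%, 42.2% and 38.2%, and 7.56%, 0% and 3.22%.

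Anti-MAFG peaks also lay on pigment cell domains in GFP cells, in at least 2 of 3 libraries in 5 of 9 and 4 of 8, beside 56.4% of all domains. In MAFG cells the count was 0 of 9 and 0 of 8, beside 3.63%. Both counts are near those shares. The MITF domain was covered to 70.6%, 50.3% and 36.04% by anti-MAFG peaks in GFP cells, and that of RAB27A to 71.9%, 53.2% and 28.6%. No GFP-cell anti-MAFG library had a peak in the PMEL domain. The broadest anti-MAFG coverage in base pairs was in the domains of ROBO1, an axon guidance receptor, the ETS factor ETV1, ZNF608, the non-coding MIR3142HG and the protocadherin PCDH7. For anti-MITF it was in NEAT1, ZFP36L2, the domain of CIAO2A and SNX1, TSC22D2 and UPP1.

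In MAFG cells the anti-MAFG peaks that were left included known targets of MAF and NRF2 dimers. Of 6 domains of listed MAF and NRF2 genes, 3 had a peak in at least 2 of 3 MAFG-cell libraries, beside 3.63% of all domains; the list was compiled with earlier results of these data known. NQO1, a quinone reductase, was covered to 46.5%, 33.3% and 27.9% in GFP cells, and in MAFG cells 12.6%, 13.04% and 11.5%. SLC7A11 had 40.8%, 22.6% and 19.4%, and 23.3%, 12.3% and 9.56%, so its lines overlapped. In the larger domain of SQSTM1, a selective autophagy receptor, the values were 20.8%, 17.8% and 0% in GFP cells, and in MAFG cells 26.4%, 23.6% and 22.3%, all 3 above all 3 of GFP cells. That domain went from 5728 to 3753 bp in H3K4me3, and its anti-MITF coverage was 97.6%, 78.2% and 97.0% in GFP cells, and in MAFG cells 43.3%, 17.5% and 24.2%. FOS, an AP-1 subunit, had anti-MAFG coverage of 34.2%, 0% and 0% in GFP cells, and in MAFG cells 12.01%, 10.6% and 13.2%. NFE2L2, the NRF2 gene, and FTH1, ferritin heavy chain, had 0 MAFG-cell anti-MAFG libraries with a peak. Of the 37 domains with a peak in 3 of 3 MAFG-cell anti-MAFG libraries, the widest after NEAT1 were those of PCDH7, VIM, SNX5 (with MGME1), LINC00673, MDC1 (with TUBB), GAPDH (with IFFO1) and TOB2.

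Inside the domains, factor summits lay closer to gene starts than domain positions in general in 11 of the 12 libraries. The median distance from an anti-MITF summit to the nearest start was 787 ± 10.4 bp in GFP cells and 620 ± 69.7 bp in MAFG cells, against 1495 bp for all positions in domains. For anti-MAFG it was 943 ± 77.9 bp and 1200 ± 419 bp, and in replicate 2 of the MAFG-cell anti-MAFG libraries, with 59 summits, it was 1623 bp, farther than domain positions. Within 500 bp of a start lay 41.7% ± 0.477 of the anti-MITF summits and 39.9% ± 2.48 of the anti-MAFG summits in GFP cells, against 21.8% of positions. In MAFG cells these shares were 45.1% ± 1.98 and 38.1% ± 4.61. Anti-MITF summits fell in the central 50% of the domain's length to 55.0% ± 1.10 in GFP cells and 56.2% ± 2.50 in MAFG cells (exact permutation p = 0.5).

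Anti-MAFG summits of MAFG cells stood apart in position. Here and above, the domain and its H3K4me3 summit are those of GFP cells, for libraries of both lines. Positions relative to the shorter H3K4me3 peaks of MAFG cells were not measured. In GFP cells 50.1%, 51.5% and 51.4% of them lay in the central 50% of a domain, and in MAFG cells 38.7%, 35.6% and 38.4%, with no overlap. They were also farther from the H3K4me3 summit, at a median of 1497 ± 125 bp against 1210 ± 10.97 bp. Both comparisons gave p = 0.1 by exact permutation test, the smallest possible, and 0.2 after adjustment over the 4 position tests. They were chosen after the positions had been seen, and rest on 75, 59 and 86 summits in the MAFG-cell libraries against 1615, 1422 and 901 in GFP cells.

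**Figure D4:**
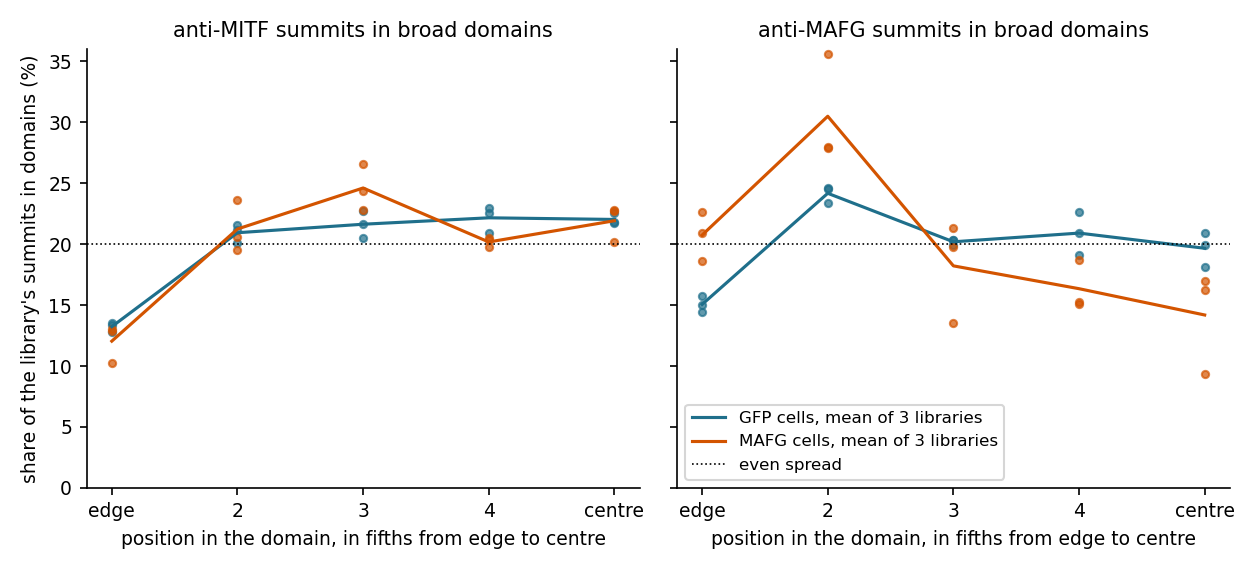
Share of each library's summits inside broad domains (%, vertical) by distance class from the edge to the centre (horizontal), with both sides folded together and each class holding 20% of the length. Edge and centre are those of the GFP-cell domain for both lines. Points are libraries and lines the mean of 3; anti-MAFG summits of MAFG cells are most frequent in the class next to the edge (30.5%) and least frequent at the centre (14.2%), while anti-MITF summits of both lines follow each other.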

How the data were processed

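CUT&RUN peak lists of 14 libraries were used. Per the submitters' processing notes, the tools were cutadapt 1.8.1, Bowtie2 2.4.1, MACS2 2.1.1.20160309, ChIPseeker 1.32.1 and deepTools on GRCh38; the settings and the control used in calling are not given in the sources used here. Each deposited list holds the authors' peaks of 1 library, with 3 deposited values per peak: fold enrichment as a plain ratio, and p and q, each given as −log10. These values served only to describe or filter peaks within a list and to solve for summit fragments.

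The members, gene lists and tests were chosen with earlier results of these data known. One of the gene lists is not reported here. A factor peak counted in a domain at an overlap of at least 1 bp. The width in MAFG cells is that of the longest overlapping peak. Of 19970 protein-coding genes, 15811 were located by RefSeq start sites and 4159 by either end of the gene. Libraries were compared with two-sided exact permutation tests (20 assignments) or exact sign-flip tests, adjusted over 8 tests. Summit fragments k were solved from fold = (k × scale + 1) / (background + 1) with p taken as the upper Poisson tail (tolerance 0.001 on the −log10 scale). All peaks of the 12 factor libraries were solved (100%), as were 91.1% (GFP) and 99.96% (MAFG) of the H3K4me3 peaks; those with −log10 p of 250 or more were left out. The formula is inferred, not stated by the authors. Overlap functions and the solution were tested on simulated data. Named regions are the 25 widest domains, listed genes in domains, the 5 highest and 5 lowest width ratios, domains without a MAFG-cell peak, and the 5 with most covered base pairs per antibody; beyond these, the domains with peaks in all 12 libraries, and the widest with anti-MAFG peaks in 3 of 3 MAFG-cell libraries, were named after their values were seen. Alternatives were another width limit, q limit, peak number, summits, a summit window and leaving out each library. Computation used Python 3.11.15, numpy 2.4.6, pandas 2.3.3 and scipy 1.17.1.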

Additional observations from a re-analysis of the deposited data

How the results depend on the processing

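With 1 H3K4me3 library per line and 3 libraries per factor group, no between-line comparison could reach p below 0.1. The 4 differences in the share of domains with a peak kept their sign under every alternative run but shrank with equal peak numbers, to -1.79 and -2.08 between the lines and to 6.04 and 6.33 between the antibodies in GFP and MAFG cells; the last was 4.67 with −log10 q of at least 5. The higher anti-MITF coverage of domains (1.503 percentage points) did not: it was 1.12 at a limit of 3000 bp, 1.38 for peaks with −log10 q of at least 5, 0.477 with equal peak numbers, 2.23 in a 1000 bp window at the H3K4me3 summit, and reversed to -1.11 summits per 100 kb. Leaving out 1 library gave 1.18 to 1.79, with p of 0.0625 because fewer libraries remain. For anti-MAFG the value (-0.0717) was -0.316, -0.147, -0.0959, -1.40 and -1.43 under limit, q, peak number, summits and window, each with an exact p of 0.03125. It was 0.405 against peaks of 2000 to 4000 bp, with the same exact p of 0.03125, and between -0.141 and 0.0241 with 1 library left out, the latter without replicate 3 of the GFP cells anti-MAFG libraries. The log2 difference between lines turned to 0.0752 for anti-MITF with summits, and to 0.0170 at 5000 bp and 0.0294 against peaks of 2000 to 4000 bp for anti-MAFG. Its largest sizes in the opposite direction were in the summit window, at -0.368 for anti-MITF and -1.16 for anti-MAFG (exact p of 0.1 in each), and anti-MITF gave -0.311 with equal peak numbers. The cause was not tested. The median width ratio was 0.802 by base pairs covered and 0.797 after merging peaks within 500 bp. Counting either end of every gene, an alternative chosen after seeing the data, put 64 in place of 69 listed genes in domains. Same-numbered libraries did not deviate together (correlations from -0.0928 to 0.0125). This cannot decide whether the numbers pair libraries, which the labels do not say. With the replicate block the exact sign-flip p was 0.25 for the line and antibody differences (-66.8, -50.9, 25.3 and 9.33), for anti-MITF coverage (1.503), and for the log2 differences (-0.110 and -0.180), and 1 for anti-MAFG coverage (-0.0717).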
